A study of Tetranychus urticae with 24 samples.

Results

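*CYP392D2* (*tetur03g04990*), *CYP392D6* (*tetur03g05030*) and *CYP392D5p* (*tetur03g05020*, annotated as a probable pseudogene) are cytochrome P450 genes with neighbouring IDs on scaffold 3 of the genome of the two-spotted spider mite, *Tetranychus urticae*. They are 3 of the 19087 genes in the count table, and all 3 are among the 12736 genes with enough reads to be tested. They were chosen by their measured level: the study lists each of them among its upregulated genes after PBO and after DEF, so their rise with these compounds is described here without a test. The 24 libraries come from 6 groups of 4 biological replicates, each made from a pool of about 100 living adult females of 3 to 5 days old. All mites, controls included, belong to JP-R, a single laboratory strain that is resistant to the acaricides cyenopyrafen and cyflumetofen. The strain was kept under 200 mg/L cyenopyrafen and was off the compound in the last week before the experiment. Mites were left unsprayed (CON), sprayed with N,N-dimethylformamide and emulsifier W in water (FORM), or sprayed with a synergist in that formulation, and survivors were taken at 24 h. The synergist was PBO at 1000 ppm, DEF at 500 ppm, DEM at 2000 ppm, or CsA at 50 ppm.

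Cytochrome P450s are heme enzymes that insert an oxygen atom into lipophilic substrates, and in mites they take part in the breakdown of acaricides and plant compounds. The CYP392 family expanded in *T. urticae*, and many of its genes stand in clusters of close copies. P450s are the target of PBO, and carboxyl/choline esterases that of DEF. Treatment with DEM uses up the glutathione that glutathione S-transferases conjugate to their substrates. CsA inhibits vertebrate ABC transporters, which export compounds from cells, and the study describes this action as less well known in arthropods. *CYP392D2* and *CYP392D6* are annotated as enzyme genes with no substrate named, whereas *CYP392D5p* is not annotated as an intact enzyme.

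The libraries held 13824851 to 18198286 counts each, with a median of 15758427, and no library repeated another. The vitellogenin genes *tetur20g01230* and *tetur07g05480*, yolk precursors of egg-laying females, had at least 74.4 and 471 CPM (counts scaled to library size with TMM factors) in every library, so egg-producing females were present in each. Replicate 3 of CON and replicate 1 of DEM had the lowest and the highest share of counts in the most abundant gene (3.58% and 7.69%), and without replicate 4 of CsA the genes called in CsA against FORM went from 140 to 513. Calls and signs of the 3 CYP392D genes that changed without these 3 libraries are given with both values. Sizes moved in other comparisons too. The RNA was from whole mites, so fewer cells that express a gene and less RNA per cell cannot be told apart. Reads that fit more than 1 place are not counted by the default settings the authors used, so counts of genes with close copies are uncertain where their reads could be shared. Gene lengths were not used here, so levels are compared between groups and not between genes.

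*CYP392D2* had from 2799 to 12496 counts per library. Its level was 325, 228, 215 and 266 CPM in replicates 1 to 4 of CON and 262, 351, 294 and 306 CPM in FORM. In PBO it was 627, 562, 716 and 695 CPM, and in DEF 744, 677, 672 and 624 CPM. Every PBO and DEF library thus lay above every library of the other 4 groups. The choice of the genes by their PBO and DEF levels favours such a separation, and its share over all genes was not counted. In DEM it was 183, 186, 209 and 222 CPM, and in CsA 211, 239, 280 and 241 CPM. The group means rose in the order DEM (199.9 ± 18.6 CPM), CsA (243 ± 28.5), CON (259 ± 49.2), FORM (303 ± 36.6), PBO (650 ± 69.97) and DEF (679 ± 49.6; SD, n = 4 each). Each neighbouring pair in this order overlapped in range except FORM and PBO.

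*CYP392D6* had from 1274 to 5513 counts per library. It was measured at 159, 99.0, 78.1 and 131 CPM in CON and at 155, 162, 136 and 155 CPM in FORM. In PBO the level was 227, 272, 309 and 318 CPM, and in DEF 328, 245, 231 and 229 CPM. In DEM it was 113, 97.5, 96.7 and 110 CPM, and in CsA 123, 114, 138 and 160 CPM. As for *CYP392D2*, the PBO and DEF libraries all lay above the other 4 groups. The means rose from DEM (104 ± 8.24 CPM) over CON (117 ± 35.5), CsA (134 ± 20.4) and FORM (152 ± 11.2) to DEF (258 ± 47.3) and PBO (281 ± 41.2; SD, n = 4 each). PBO and DEF stood in the opposite order to that of *CYP392D2*. Neighbours in this order overlapped in range, other than FORM and DEF.

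The probable pseudogene *CYP392D5p* was read much less, with 70 to 640 counts per library. It had 10.7, 6.41, 4.29 and 7.89 CPM in CON and 8.28, 9.06, 9.14 and 11.5 CPM in FORM. In PBO it had 20.7, 19.9, 39.8 and 23.1 CPM, and in DEF 24.1, 23.8, 24.7 and 41.5 CPM. In both groups 1 library was far above the other 3. In DEM the gene had 7.32, 6.85, 6.60 and 6.58 CPM, and in CsA 8.04, 8.38, 10.97 and 9.00 CPM. The mean was lowest in DEM (6.84 ± 0.344 CPM), followed by CON (7.33 ± 2.70), CsA (9.10 ± 1.31) and FORM (9.48 ± 1.37), and was 25.9 ± 9.39 CPM in PBO and 28.5 ± 8.68 CPM in DEF (SD, n = 4 each). Only FORM and PBO among neighbours in this order did not overlap. The spread over the PBO libraries (a coefficient of variation, CV, of 36.3%) and over the DEF libraries (30.4%) exceeded the 4.90% and 4.86% that counting error alone gives. In DEM the CV was 5.04%, below the 9.39% expected from counting error.

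**Figure D1:**
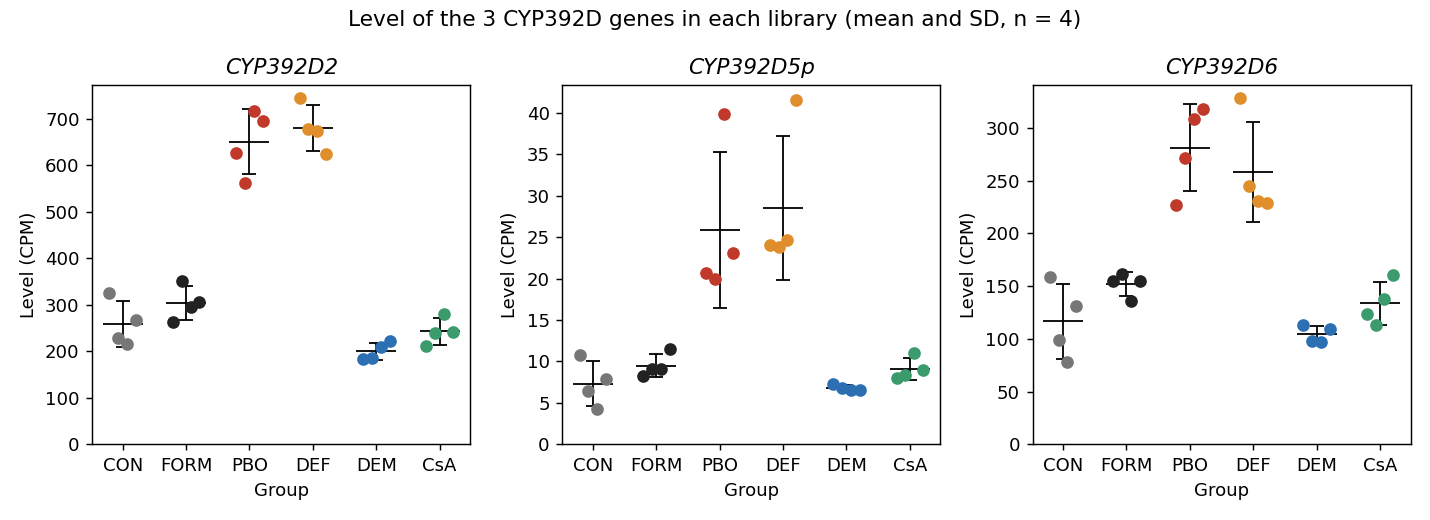
Level in CPM (y axis, linear and starting at 0) of *CYP392D2*, *CYP392D5p* and *CYP392D6* in the 6 groups (x axis). Each point is a library, horizontal marks are means and bars are SD (n = 4). For each gene all PBO and DEF points lie above all points of CON, FORM, DEM and CsA, but PBO and DEF levels chose the genes. For *CYP392D5p* 1 PBO and 1 DEF library lie near 40 CPM.

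As fold changes (FC) from a fit of all libraries, PBO against FORM amounted to 2.14 for *CYP392D2*, 1.85 for *CYP392D6* and 2.74 for *CYP392D5p*. DEF against FORM amounted to 2.24, 1.70 and 3.01 in the same order. These are the comparisons that chose the genes, where 1.06% (PBO) and 1.5% (DEF) of all genes tested were called as higher, that is with a Benjamini-Hochberg adjusted p under 0.05 and an FC of at least 1.5. The member nearest to that minimum FC was *CYP392D6* in DEF, and of the P450 genes next to them *tetur03g05060* lay just outside in PBO (FC of 2.05, adjusted p = 0.0517). The largest gap between any groups was that from DEM to DEF for *CYP392D5p* (FC of 4.17) and *CYP392D2* (3.40) and that from DEM to PBO for *CYP392D6* (2.70). Without replicate 3 of PBO the log2 FC of *CYP392D5p* in PBO against FORM was 1.17 in place of 1.45, and without replicate 4 of DEF that in DEF against FORM was 1.35 in place of 1.59.

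PBO and DEF were next compared with each other, a difference that the choice of genes did not use although both groups entered it. With edgeR, DESeq2 and limma-voom 0 of the 3 genes were called, beside 0.345% of all genes, and 0 had an unadjusted p under 0.05 in edgeR, beside 15.5% of all genes. The log2 FC of PBO against DEF was −0.06 for *CYP392D2* (95% confidence interval −0.30 to 0.17, adjusted p = 0.841). It was 0.12 for *CYP392D6* (−0.20 to 0.45, adjusted p = 0.767) and −0.14 for *CYP392D5p* (−0.58 to 0.30, adjusted p = 0.812). As a ratio of PBO to DEF the interval ran from 0.814 to 1.13 for *CYP392D2* and from 0.870 to 1.36 for *CYP392D6*. PBO, a methylenedioxyphenyl compound, and DEF, an organophosphate, were sprayed at different doses. The sign for *CYP392D5p* turned without replicate 4 of DEF (log2 FC of 0.09), and that for *CYP392D2* without replicate 2 of PBO (0.00031).

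DEM against FORM asks what adding DEM to the formulation changed, and all 3 genes had their lowest mean in DEM. *CYP392D2* fell, with an FC of −1.52 (log2 FC −0.60, SE 0.115, adjusted p = 0.00589), and was the only one of the 3 called, where 0.526% of all genes were called as lower. All 4 DEM libraries lay below all 4 FORM libraries for *CYP392D2* (183 to 222 against 262 to 351 CPM), *CYP392D6* (96.7 to 113 against 136 to 162 CPM) and *CYP392D5p* (6.58 to 7.32 against 8.28 to 11.5 CPM). The DEM libraries were likewise all below the FORM libraries for 8.75% of all genes. *CYP392D6* passed the adjusted p but not the FC minimum (FC of −1.46, log2 FC −0.54, SE 0.160, adjusted p = 0.0320). *CYP392D5p* passed neither (FC of −1.38, log2 FC −0.47, SE 0.249, adjusted p = 0.218). The call of *CYP392D2* lies at the edge of the minimum FC. It was lost on size, though not on the adjusted p, without replicate 2 of FORM (log2 FC −0.52, adjusted p = 0.0217), replicate 1 of DEM (−0.57, 0.0201) or replicate 2 of DEM (−0.57, 0.0229). With DESeq2 and a normal prior *CYP392D2* was not called either. Without replicate 3 of CON, replicate 1 of DEM and replicate 4 of CsA together, *CYP392D6* was called (log2 FC −0.59, adjusted p = 0.01000) and *CYP392D2* was not (−0.57, 0.00439). The adjusted p of *CYP392D6* rose to between 0.0521 and 0.0761 when any 1 library other than replicate 4 of DEM was left out. The FORM libraries also served the comparisons that chose the genes, so DEM was compared with unsprayed mites as well.

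Against CON, neither DEM nor FORM nor CsA gave a call for any of the 3 genes with edgeR, DESeq2 or limma-voom, beside 2.63%, 0.0236% and 2.66% of all genes in edgeR. At an unadjusted p under 0.05 there were 1, 1 and 0 of the 3, beside 30.4%, 5.11% and 29.7% of all genes. *CYP392D2* was again low in DEM, at a log2 FC of −0.37 (FC of −1.29, SE 0.114, adjusted p = 0.0367) and so under the minimum FC. The ranges overlapped here through replicate 3 of CON alone (215 CPM). The same comparison gave −0.16 for *CYP392D6* (adjusted p = 0.516) and −0.10 for *CYP392D5p* (adjusted p = 0.814), and without replicate 1 of CON both turned sign (0.0083 and 0.13). FORM against CON was positive for each gene, with log2 FC of 0.23 for *CYP392D2* (adjusted p = 0.999), 0.38 for *CYP392D6* (0.836) and 0.36 for *CYP392D5p* (0.999). Without replicate 3 of CON it was 0.22 for *CYP392D6* and 0.17 for *CYP392D5p*, and without replicate 1 of CON 0.55 and 0.60. Of all genes, 3 were called between FORM and CON, and 651 passed an unadjusted threshold of 0.05, *CYP392D6* among them.

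CsA gave no call for the 3 genes against either control, and 1 of them against FORM had an unadjusted p under 0.05, as had 24.9% of all genes. Against FORM, where 1.1% of all genes were called, the log2 FC was −0.32 for *CYP392D2* (SE 0.114, adjusted p = 0.0918), −0.18 for *CYP392D6* (SE 0.159, adjusted p = 0.495) and −0.06 for *CYP392D5p* (SE 0.245, adjusted p = 0.908). For *CYP392D5p* the sign turned without replicate 4 of FORM (0.045) or replicate 1 of CsA (0.0022). Against CON the log2 FC was −0.09 (*CYP392D2*, adjusted p = 0.622), 0.20 (*CYP392D6*, 0.425) and 0.31 (*CYP392D5p*, 0.426). Without replicate 1 of CON that of *CYP392D2* was 0.02, and without replicate 3 of CON, replicate 1 of DEM and replicate 4 of CsA together that of *CYP392D6* was −0.058. With replicate 3 of CON alone left out, CsA against CON was 0.041 for *CYP392D6* and 0.12 for *CYP392D5p*. With replicate 1 of CON left out it was 0.37 and 0.54. DEM lay below CsA by a log2 FC of −0.28 for *CYP392D2* (adjusted p = 0.655), −0.36 for *CYP392D6* (0.737) and −0.41 for *CYP392D5p* (0.990), none called by edgeR, DESeq2 or limma-voom beside 0.597% of all genes, while 2 of the 3 had an unadjusted p under 0.05, beside 5.8% of all genes. For *CYP392D6* and *CYP392D5p* the DEM libraries all lay below the CsA libraries, as for 1.5% of all genes, but no adjusted p reached the threshold.

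**Figure D2:**
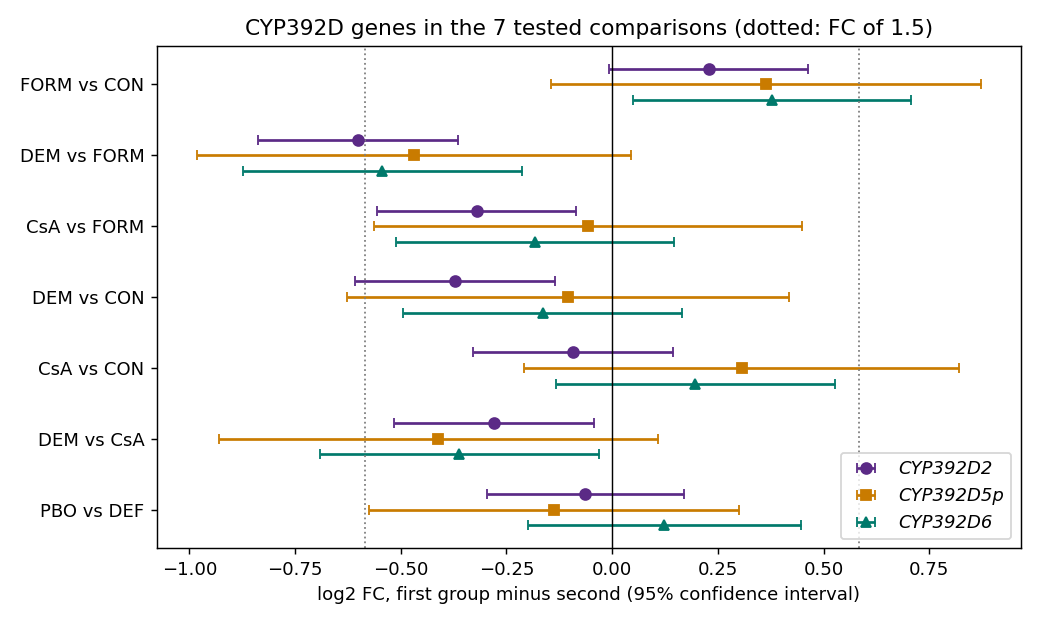
Log2 FC (x axis, first group minus second) of the 3 genes in the 7 tested comparisons (y axis). Symbols are estimates, bars are 95% confidence intervals and dotted lines mark an FC of 1.5 in either direction. *CYP392D2* in DEM against FORM lies at −0.60, just past the dotted line, and the estimates for PBO against DEF lie between −0.14 and 0.12.

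The proportion of the 3 genes to each other does not depend on the scaling of libraries. *CYP392D6* had 44.4% as many counts as *CYP392D2* in CON, 50.5% in FORM, 43.4% in PBO, 37.8% in DEF, 52.4% in DEM and 55.4% in CsA (means of 4 libraries). *CYP392D5p* had 2.76% in CON, 3.15% in FORM, 3.93% in PBO, 4.27% in DEF, 3.45% in DEM and 3.74% in CsA. The highest single values were 5.56% in replicate 3 of PBO and 6.66% in replicate 4 of DEF, so *CYP392D5p* was high in these libraries relative to *CYP392D2* as well. For *CYP392D6* the DEF libraries (34.3% to 44.1%) all lay below those of FORM (46.1% to 59.1%), DEM (46.3% to 61.7%) and CsA (47.5% to 66.7%). These pairs were not tested. Both proportions were compared in 5 pairs of groups by two-sided exact permutation tests on log2 ratios, for which 0.0286 is the smallest p possible. The pairs were PBO and DEF, FORM and CON, DEM and CON, CsA and CON, and DEM and CsA. No other pair was tested, so a change of proportion there is left undecided. *CYP392D5p* to *CYP392D2* was higher in CsA than in CON (log2 difference 0.46, exact p = 0.0286) but not after adjustment over the 10 tests (adjusted p = 0.286). The other 9 exact p-values were between 0.114 and 0.657.

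**Figure D3:**
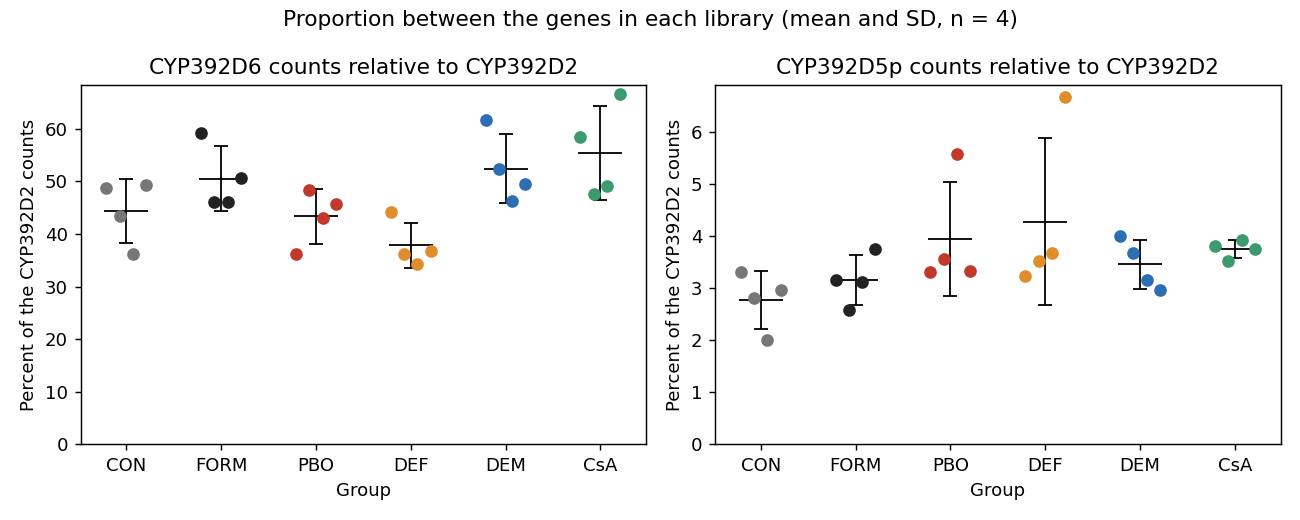
Counts of *CYP392D6* (left) and *CYP392D5p* (right) as percent of the *CYP392D2* counts of the same library (y axes, starting at 0) in the 6 groups (x axis). Points are libraries, horizontal marks means and bars SD (n = 4). *CYP392D6* has its lowest mean in DEF (37.8%) and its highest in CsA (55.4%). The ranges of most groups overlap, but for *CYP392D6* all DEF points lie below those of FORM, DEM and CsA, pairs that were not tested.

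Whether the genes also varied together among mites treated alike was asked after removing the group means from log2 CPM. Over the 24 libraries *CYP392D2* and *CYP392D6* correlated with Pearson's r = 0.67 (permutation p = 0.00689, adjusted over 3 pairs 0.0207) and Spearman's rho = 0.62 (permutation p = 0.00949, adjusted 0.0285). For *CYP392D2* and *CYP392D5p*, r was 0.53 (permutation p = 0.0393, adjusted 0.0590) and rho 0.49 (permutation p = 0.0358, adjusted 0.0538). For *CYP392D6* and *CYP392D5p*, r was 0.52 (permutation p = 0.0782) and rho 0.43 (permutation p = 0.0928). Replicates 1 and 3 of CON, the highest and the lowest CON library for all 3 genes, lay farthest out for *CYP392D2* and *CYP392D6*. Without them r was 0.48, 0.28 and 0.19 for these pairs, and without CON altogether it was 0.43, 0.26 and 0.13, with no p computed. All 3 relations were thus weaker without CON, and the 2 weaker ones rest in good part on it. Without replicate 3 of CON alone r was 0.61, 0.44 and 0.38, again with no p computed. *CYP392D5p* was not used to pick the libraries left out, and its high libraries, replicate 3 of PBO and replicate 4 of DEF, stayed in. Genes measured in one library share its depth and scaling, and no background from other pairs of genes was taken. The neighbour *tetur03g05000*, which is not in the P450 list below, had the same order over replicates 1 to 4 of CON (164, 114, 89.0 and 155 CPM).

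In the table, *tetur03g05000* and *tetur03g05010* lie between *CYP392D2* and *CYP392D5p*, and neither is in the P450 list below. *tetur03g05000* had a mean of 175 CPM in FORM, 225 in PBO, 206 in DEF and 175 in DEM (n = 4 each), with log2 FC against FORM of 0.36 in PBO (adjusted p = 0.0864), 0.23 in DEF and −0.00 in DEM. *tetur03g05010* had 68.6 CPM in FORM, 74.6 in PBO, 58.1 in DEF and 59.9 in DEM, with log2 FC of 0.12 (adjusted p = 0.383), −0.24 (adjusted p = 0.0741) and −0.19. Neither was called against FORM in PBO, DEF or DEM. Against CON (130 CPM), however, *tetur03g05000* was higher in PBO (FC of 1.73, adjusted p = 0.000329) and in DEF (FC of 1.58, adjusted p = 0.00198). Just beyond *CYP392D6* lie a P450 fragment, *tetur03g05040*, and a probable P450 pseudogene, *tetur03g05060*, which the study also lists for PBO and DEF. The fragment had 131 CPM in FORM, 235 in PBO and 217 in DEF (log2 FC 0.85 and 0.73), and in DEM it had 119 CPM (log2 FC −0.13, adjusted p = 0.633). The pseudogene, with 6 to 130 counts per library, had 3.28 CPM in FORM, 6.68 in PBO and 6.88 in DEF, and 2.89 in DEM (log2 FC −0.19, adjusted p = 0.780).

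Taking all rows between the 3 genes and 10 rows on either side, 15 of 22 neighbours had enough reads to be tested. In DEM and CsA against FORM 0 of these 15 were called by edgeR, DESeq2 or limma-voom, beside 2.21% and 1.1% of all genes. At an unadjusted p under 0.05 in edgeR there were 3 and 0, beside 28.5% and 24.9% of all genes, and their median log2 FC was −0.00 and 0.11. In PBO against FORM 1 was called, *tetur03g05040*, and in DEF against FORM 2 were, *tetur03g05040* and *tetur03g05060*, all higher. Against CON more neighbours were called, all higher, with 4 in PBO and 5 in DEF, beside 2.71% and 2.47% of all genes called as higher. These were *tetur03g05000*, *tetur03g05040*, *tetur03g05060* and *tetur03g05100* (FC of 1.95 in PBO and 1.86 in DEF) in both, and *tetur03g05110* in DEF (FC of 1.92). The study lists *tetur03g05040* and *tetur03g05060* for PBO and DEF on these same libraries. Their calls in PBO and DEF, against either control, are thus favoured by that choice and are no independent evidence. In CsA against CON *tetur03g05000* was higher (FC of 1.503, log2 FC 0.59, adjusted p = 0.0120). Its level in replicate 3 of CON was the lowest of all libraries (89.0 CPM), a library that was also lowest among CON for the 3 CYP392D genes and for *tetur03g05040* (67.3 CPM). The part of that library in the calls against CON was not tested.

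**Figure D4:**
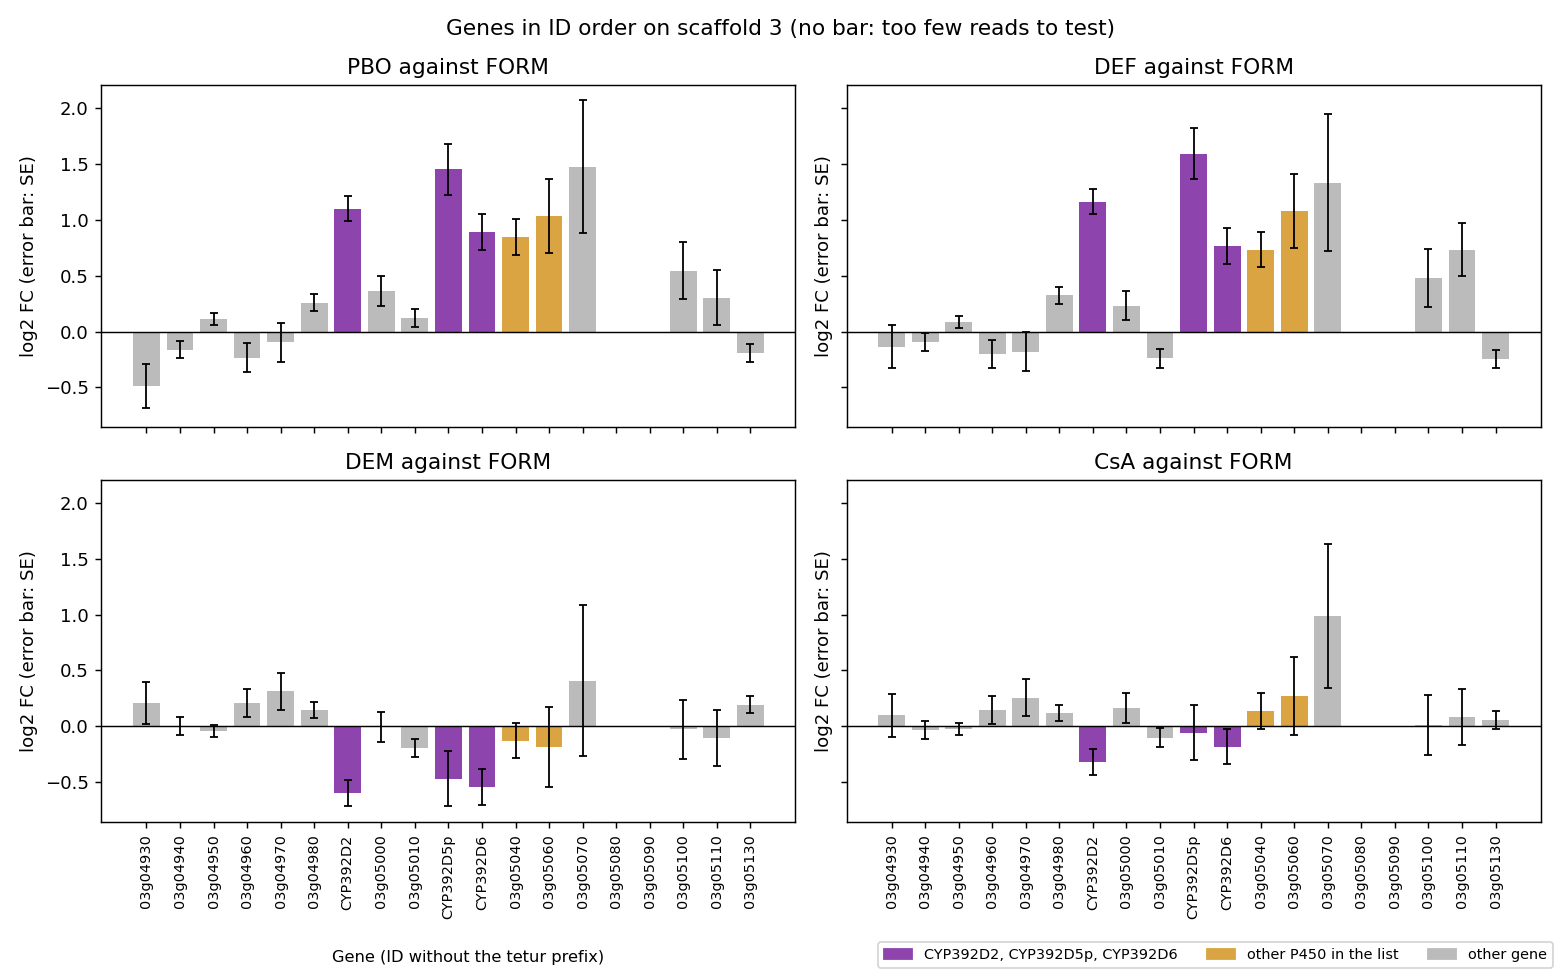
Log2 FC against FORM (y axes, error bars are SE) of genes in ID order on scaffold 3 (x axis) for PBO, DEF, DEM and CsA. Purple bars are the 3 CYP392D genes, ochre bars the P450 fragment and the probable pseudogene beside them, and grey bars other genes, and gene lengths and distances are not drawn. In PBO and DEF, the comparisons that chose these 3 genes, the purple bars stand above those of *tetur03g05000* and *tetur03g05010* between them. The grey bar of *tetur03g05070*, a gene with 2 to 31 counts per library, reaches 1.47 in PBO without a call. *CYP392D2* lies at −0.60 in DEM.

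The genes were then set beside the 19 P450 genes that the study lists in its tables of differentially expressed genes, all of which passed the filter. This list was drawn from the same libraries in PBO, DEF, DEM and CsA against FORM, so its calls and medians in these 4 comparisons are in part fixed by the choice and are no independent evidence. In DEM against FORM, 5 of the other 16 P450 genes fell, 1 rose and 10 did not pass, beside 2.21% of all genes called. Their median log2 FC was −0.48 beside 0.00 over all genes. Those that fell were *CYP392A3* (log2 FC −1.57), *CYP385C4v2* (−0.87), *CYP392B3* (−0.76), *tetur03g09941* (−0.70) and *CYP385C3v2* (−0.69), and the probable pseudogene *tetur21g00560* rose (1.14), with adjusted p from 9.88e-05 (*CYP392B3*) to 0.0317 (*CYP385C3v2*). *CYP392D2* (−0.60) and *CYP392D6* (−0.54) thus lay near the middle of the list. Without replicate 3 of FORM 3 of the other 16 were called in place of 6.

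Genes of another P450 subfamily, *CYP385C*, made up the calls in this list with CsA. *CYP385C4* (log2 FC 1.12), *CYP385C3* (1.04) and *CYP385C3v2* (0.98) rose against FORM (adjusted p from 0.00232 to 0.00443), while the 3 CYP392D genes lay between −0.32 and −0.06. The median over the other 16 was −0.02 beside 0.01 over all genes, and without replicate 4 of CsA 5 of them were called in place of 3. Against CON, *CYP385C4* (0.87), *CYP385C3* (1.26), *CYP385C4v2* (1.34) and *CYP385C3v2* (1.42) rose with CsA, and without replicate 1 of CON 7 were called in place of 4. *CYP385C4* and *CYP385C3* have near-namesakes, *CYP385C4v2* and *CYP385C3v2*, with which they may share reads. In DEM against CON, *CYP392A3* (−1.03), *CYP385C4* (−0.81) and *tetur03g09941* (−0.62) fell and *tetur21g00560* rose (1.10). These 4 became 2 without replicate 2 of CON or replicate 2 of DEM and 1 without replicate 3 of DEM. In DEM against CsA, *CYP385C3v2* (−1.68), *CYP385C4* (−1.68), *CYP385C4v2* (−1.502), *CYP385C3* (−1.21), *CYP392B3* (−1.02) and *CYP392A3* (−1.02) were lower in DEM. Between PBO and DEF, and between FORM and CON, 0 of the 16 were called by edgeR, DESeq2 or limma-voom, while 6 and 9 had an unadjusted p under 0.05 in edgeR, beside 15.5% and 5.11% of all genes. The median of the 16 in FORM against CON was 0.32 beside −0.00 over all genes. In PBO and DEF against FORM, 10 of the 16 were called as higher in PBO, and 8 as higher and 1 as lower in DEF. Of all genes 1.06% and 1.5% were called as higher there. In either direction 1.1% of all genes were called in CsA against FORM and 2.66% in CsA against CON. The share was 2.63% in DEM against CON and 0.597% in DEM against CsA.

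**Figure D5:**
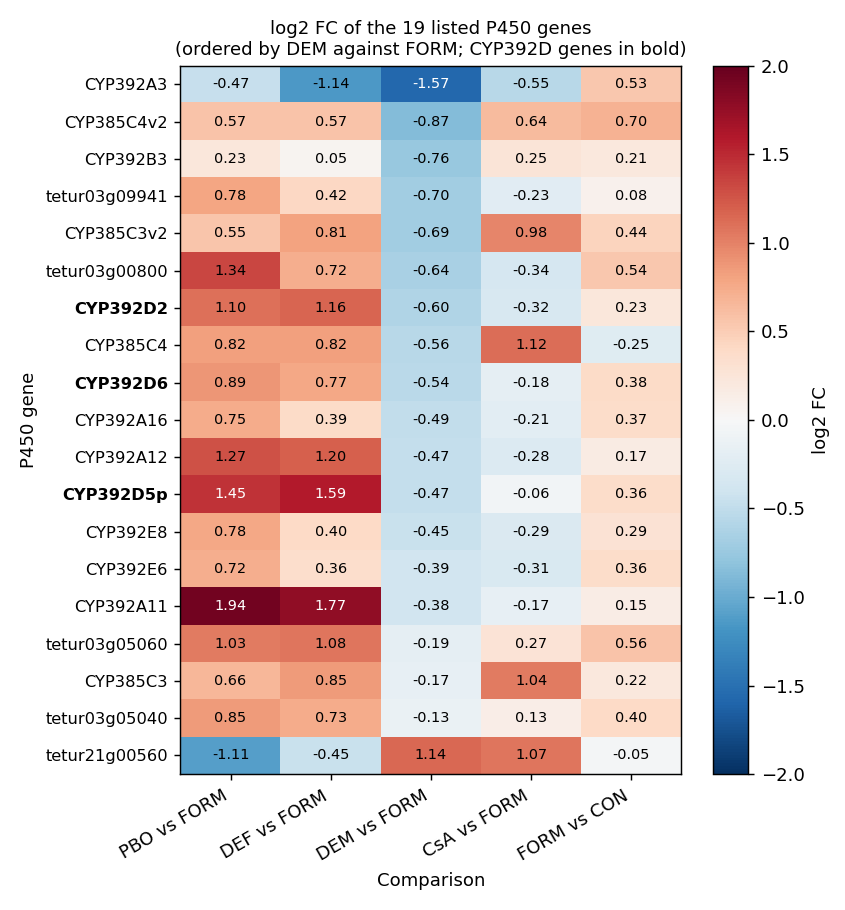
Log2 FC (colour and printed value) of the 19 listed P450 genes (y axis, ordered by DEM against FORM) in 5 comparisons (x axis), with the 3 CYP392D genes in bold. Red is higher and blue lower in the first-named group. The CYP392D genes are red in PBO and DEF and blue in DEM and CsA, while *CYP385C4* (1.12), *CYP385C3* (1.04) and *CYP385C3v2* (0.98) are red in CsA.

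Last, all other genes tested were ranked by how closely their log2 CPM followed each CYP392D gene over the 24 libraries, as a description that includes the group differences that chose these genes. Among themselves the 3 had r of 0.944 (*CYP392D2* and *CYP392D6*), 0.939 (*CYP392D2* and *CYP392D5p*) and 0.925 (*CYP392D6* and *CYP392D5p*). The genes nearest to *CYP392D2* were *CYP392A12* (*tetur03g00830*, r = 0.979), *CYP392A11* (*tetur03g00970*, r = 0.974), *tetur01g12800* (r = 0.965), the delta glutathione S-transferase *tetur29g00220* (r = 0.957) and the cathepsin B gene *tetur28g01430* (r = 0.952). CYP392A11 is known to hydroxylate cyenopyrafen. *CYP392A12* had 221 CPM in CON, 249 in FORM, 602 in PBO, 571 in DEF, 179 in DEM and 205 in CsA (means, n = 4). Its groups stood in the order of *CYP392D2*, except that PBO and DEF changed places. *tetur01g12800* had the same order of groups as *CYP392D2* over a much smaller range, from 65.9 CPM in DEM to 100.3 in DEF.

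Nearest to *CYP392D6* were *CYP392A16* (*tetur06g04520*, r = 0.962), whose enzyme is known to hydroxylate abamectin, *tetur06g04530* (r = 0.956), *CYP392A12* (r = 0.955), *CYP392E6* (*tetur27g00330*, r = 0.954) and *CYP392E8* (*tetur27g00350*, r = 0.953). Like *CYP392D6*, *CYP392A16* had its lowest mean in DEM (804 CPM). The mean of *CYP392A16* was higher in PBO (1903 CPM) than in DEF (1481), without overlap of libraries (1840 to 1952 against 1307 to 1623 CPM). For *CYP392D6* the PBO and DEF libraries overlapped. Nearest to *CYP392D5p* were *tetur02g02200* (r = 0.944), the cathepsin B gene *tetur28g01430* (r = 0.936), the UDP-glycosyltransferase gene *UGT11* (*tetur02g09850*, r = 0.935), *tetur03g08810*, which encodes a small secreted protein (r = 0.933), and *CYP392A12* (r = 0.928). By Pearson's r *CYP392A12* was among the 5 nearest genes of each, though for *CYP392D5p* it ranked 55 by Spearman's rho. The 15 places were held by 12 genes, 5 of them in the P450 list.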

How the data were processed

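Reads of 24 polyA-selected, strand-specific libraries were handled by the authors with FastQC 0.11.4, STAR 2.5.0a, SAMtools 0.1.19 and HTSeq 0.6.0. The deposited values are the resulting raw counts per gene, counted by the authors on annotated exons with strand kept. The analysis used R 4.3.3 and edgeR 4.0.16 (filterByExpr, TMM, 1 mean per group, quasi-likelihood test on all 24 libraries), and p-values were adjusted by Benjamini-Hochberg over 12736 genes in each comparison. A call needed an FC of 1.5 or more in either direction, with an adjusted p below 0.05. Log2 CPM used a prior count of 2, ratios a pseudocount of 0.5 counts and correlations 100000 permutations within groups. CPM and intervals are on TMM-scaled library sizes.

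The CYP392D genes, the P450 list and the tests were chosen with earlier results of these data known. Named genes are the 3 CYP392D genes, neighbouring P450 genes of the list, for each CYP392D gene the 5 genes with the highest r, and listed P450 genes called in a tested comparison. The neighbours *tetur03g05000* and *tetur03g05010* are named for their place, and *tetur03g05070*, *tetur03g05100* and *tetur03g05110* were named after their values were seen. Descriptions of genes are those of the study's tables. No RefSeq name matched the IDs of the counts, and that table was not used here. Alternatives were DESeq2 1.42.0 with and without a normal prior, its size factors, limma-voom (limma 3.58.1), other filters, other samples in the fit, a replicate block, a test against an FC of 1.5, a robust estimate of the spread, other log scales and measures of likeness, and libraries left out. The study made its own calls with an earlier version of DESeq2 and does not state whether a prior was used. The fit was also run on simulated counts with known changes in DEM against FORM only, and no result here rests on that run. P-values measure the spread between replicates, which were pools from several leaf discs of 1 experiment.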

Additional observations from a re-analysis of the deposited data

Results flagged for a closer look

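In 3 of the 18 sets of 4 libraries 1 value lay far from the others, where chance sets apart about 1 in 20. These were *CYP392D5p* in replicate 3 of PBO (39.8 CPM), *CYP392D5p* in replicate 4 of DEF (41.5 CPM) and *CYP392D6* in replicate 1 of DEF (328 CPM).

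For *CYP392D2* every PBO and DEF library lay above and every DEM and CsA library below the FORM mean. The log2 FC between the groups was 1.70 for PBO against DEM, 1.42 for PBO against CsA, 1.76 for DEF against DEM and 1.48 for DEF against CsA. For *CYP392D5p* the same held for PBO against DEM (1.92) and DEF against DEM (2.06), and for *CYP392D6* for PBO against DEM (1.43) and DEF against DEM (1.31). These differences were not tested, because the PBO and DEF levels chose the genes.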

How the results depend on the processing

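*CYP392D2* in DEM against FORM was lower in each of 19 alternatives, passed the adjusted p in 18 and was called in 13. It was not called with DESeq2 and a normal prior (log2 FC −0.55), in a test against an FC of 1.5 itself (−0.60, adjusted p = 1) or without replicate 3 of CON, replicate 1 of DEM and replicate 4 of CsA (−0.57), a setting chosen after seeing the data, as was the robust estimate of the spread. With these 3 libraries out *CYP392D6* in DEM against FORM was called (−0.59) and in CsA against CON turned sign (−0.058). Leaving out 1 library at a time gave −0.66 to −0.52 for *CYP392D2* in DEM against FORM. For signs that turned, the ranges were −0.29 to 0.13 (*CYP392D5p*) and −0.32 to 0.0083 (*CYP392D6*) in DEM against CON, −0.18 to 0.025 (*CYP392D2*) in CsA against CON, −0.16 to 0.045 (*CYP392D5p*; 0.0022 without replicate 1 of CsA) in CsA against FORM, and −0.11 to 0.00031 (*CYP392D2*) and −0.42 to 0.093 (*CYP392D5p*) in PBO against DEF. With a normal prior, which draws log2 FC towards 0, *CYP392D5p* had 1.06 in PBO and 1.17 in DEF against FORM. Within-group r without replicates 1 and 3 of CON was 0.48, 0.28 and 0.19. Under Spearman's rho, 2 of the 5 genes nearest to *CYP392D2* and 1 of those nearest to *CYP392D5p* remained, and with group means 1, 0 and 0 for *CYP392D2*, *CYP392D5p* and *CYP392D6*.

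Counts of genes called moved more than those for the CYP392D genes. With 1 library left out they ran from 0 to 10 in FORM against CON, 89 to 364 in DEM against FORM, 66 to 513 in CsA against FORM, 117 to 446 in DEM against CON, 129 to 577 in CsA against CON, 16 to 46 in PBO against DEF and 229 to 398 in DEF against FORM. With the 3 libraries out they were 614 in CsA against FORM, 194 in DEM against CON and 141 in DEM against CsA. DESeq2 called 6 genes in FORM against CON with and without a prior, and 79 in PBO against DEF without one. With a prior it called 115 in DEM against FORM, 87 in CsA against FORM, 115 in DEM against CON, 150 in CsA against CON, 153 in PBO against FORM and 188 in DEF against FORM. Limma-voom called 92 in CsA against FORM. A fit of the 2 groups alone called 1 in FORM against CON, 157 in CsA against CON and 90 in PBO against DEF. The test against an FC of 1.5 called 0 in FORM against CON and in PBO against DEF, 6 in DEM against FORM, 17 in CsA against FORM, 9 in DEM against CON, 26 in CsA against CON, 17 in DEM against CsA, 21 in PBO against FORM and 26 in DEF against FORM. Of the other 16 P450 genes it called 1 in DEM against FORM, 0 in CsA against FORM, 0 in DEM against CON, 2 in CsA against CON and 2 each in PBO and DEF against FORM. The prior left 2 in DEM against CON, DESeq2 without it 5 in CsA against FORM, and the 3 libraries out 6 there. With 1 library out these counts ran from 3 to 7 in DEM against FORM, 3 to 5 in CsA against FORM, 1 to 4 in DEM against CON and 3 to 7 in CsA against CON. Except where stated, the cause was not tested.

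Same-numbered replicates did not deviate together throughout (r from −0.279 to 0.462 over pairs of groups, the highest for replicate 1 in DEM against CON). The same number was the best match for 0 replicates in DEF against CsA and for 3 in DEF against DEM. The main fit therefore left the number out, which does not exclude that some samples were paired. With the replicate number as a block, *CYP392D2* in DEM against FORM had a log2 FC of −0.60 (adjusted p = 0.00496) and *CYP392D6* −0.55 (0.0194), 68 genes were called in PBO against DEF and 5 of the other 16 P450 genes in CsA against FORM. *CYP392D5p*, with 70 to 640 counts, is the least precise of the 3, with an SE of log2 FC near 0.25. Its CV in PBO (36.3%) and DEF (30.4%) was above counting error.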
